A study of Xenopus tropicalis with 3 samples.

Results

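The stretches of the Xenopus tropicalis genome that were most crowded with focal accessible sites in the stage 65 urostyle were 200 windows of 100 kb, taken from 13888 eligible windows. A focal site was a peak of open chromatin narrower than 1500 bp, with a fold over background from 4 to below 8. The windows were chosen by the number of focal summits they held, with ties broken by chromosome number and then position. Windows within 3 Mb of either end of chromosomes 1 to 10 were left out. The 200 windows, called dense windows below, span 20 Mb of 1388.8 Mb, or 1.44% of the eligible windows, and held 2584 of 49916 focal peaks, or 5.18%. Both percentages follow from the rule.

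The urostyle is the rod of bone that frogs form behind their vertebrae during metamorphosis, as the tail regresses. Chromatin was profiled by Omni-ATAC, a method that uses a transposase to label accessible DNA, with 1 library at each of the stages 56, 61 and 65 of tadpoles whose genotype is not labelled. By the sample protocol the dissected tissue was crushed, so a library mixes cell types, whereas the series' design text speaks of laser capture, and the number of animals per library is not stated. Only the stage 65 list of 311625 peaks is described here, because stages 56 and 61 were taken to lie on other coordinates. The last peak on chromosome 1 ended at 217471066 at stage 65, against 194261381 and 194771579 at stages 56 and 61. Those lists ended earlier on each of chromosomes 1 to 10. They hold only 4564 and 6806 peaks, and a sparse list can end early, so the ends alone do not settle this. With 1 library there is no replicate and no test, and all intervals are exact 95% intervals for counting error only.

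Open chromatin marks DNA that regulatory proteins and the transcription machinery can reach. Most narrow open sites in vertebrate genomes are promoters, at gene starts, or enhancers, which can lie inside or far from the genes they act on. Loci of developmental regulators are known for holding many enhancers over long distances. In bulk tissue, a peak that is lower because fewer cells carry it cannot be told apart from one that is less open in each cell.

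Focal peaks rested on few fragments. The deposited folds were whole multiples of 0.1497, within 0.01 of a whole number in 100% of peaks below a fold of 8, so a focal peak had 26 to 52 fragments at its summit if a pseudocount of 1 was used. The median in dense windows was 31. Defining markers of the tissue had a peak within 1 kb of a gene end in 3 of 5 cartilage genes (not acan or col9a1) and in 4 of 4 bone genes. So did 5 of 5 skeletal muscle genes, 5 of 5 spinal cord genes, 4 of 4 notochord genes, 4 of 4 blood genes, 3 of 4 endothelial genes and 3 of 5 epidermal genes, and their part in any result below was not tested. The share of all coding genes with such a peak is not given here, so these counts do not show which cell types were present.

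The dense windows held 11 to 20 focal peaks, with a median of 13. The other 13688 eligible windows held 0 to 11, with a median of 3. The window ranked 200, on chromosome 4 at 10800001 to 10900000 with the genes ldlrad3 and trim44, held 11, and so did the first window left out, on chromosome 4 at 47700001 to 47800000 with cyp2j2. Of 111 windows with 11 focal peaks, 32 were taken, all on chromosomes 1 to 4 through the tie rule, and 168 dense windows held more. A count of 11 has a Poisson interval of 5.49 to 19.7, so windows near the limit are not separated from those just outside it.

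**Figure D1:**
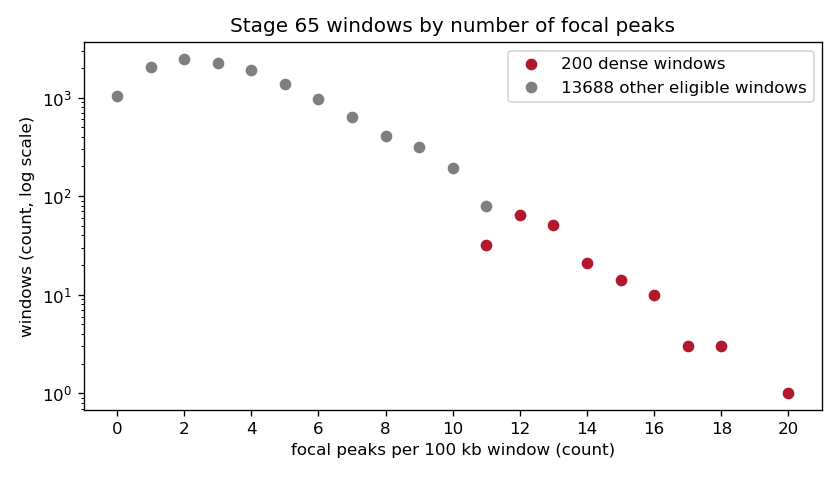
Number of eligible 100 kb windows (vertical axis, log scale) with each number of focal peaks (horizontal axis). Red points are the 200 dense windows, from 11 to 20 focal peaks, and grey points the 13688 other eligible windows, from 0 to 11. Both share the count of 11, where 32 windows were taken and 79 were not.

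The single densest window lay on chromosome 8 at 10400001 to 10500000 and held 20 focal peaks. Its Poisson interval, 12.2 to 30.9, takes no account of its choice as the highest count, so it does not separate this window from others. It overlaps ccdc180, which encodes a coiled-coil protein, and a pair of genes known by LOC numbers. Its focal peaks had folds from 4.04 to 7.34, the highest at 10433530 to 10434760, inside LOC100491571. Of the 20 summits, 2 lay within 1 kb of a gene end. Peaks of any kind covered 51.4% of this window, and focal peaks alone covered 18.1%.

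Windows of rank 2 to 4 held 18 focal peaks each. The second, on chromosome 1 at 32900001 to 33000000, overlaps no protein-coding gene, and its highest focal peak (fold 6.29) lay at 32920170 to 32921467. The third, on chromosome 2 at 176600001 to 176700000, holds 2 LOC genes and 6 lncRNA genes, with its highest focal peak (7.04) at 176634076 to 176634696. The fourth, on chromosome 4 at 22700001 to 22800000, holds 3 LOC genes and had the most peaks of any kind among the dense windows, 54. Its highest focal peak had a fold of 7.94. None of these 3 windows holds a coding gene with a symbol.

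Windows of rank 5 to 7 held 17 focal peaks each. The fifth, on chromosome 2 at 175200001 to 175300000, holds 3 LOC genes and 4 lncRNA genes and had 10 peaks with a fold of 8 or more. The sixth, on chromosome 8 at 20400001 to 20500000, has no coding gene, and peaks covered 66.7% of it. The seventh, on chromosome 9 at 4100001 to 4200000, was covered in 26.3%, the smallest share among the 12 densest. The annotated span of h2ac14, a histone H2A gene, runs through the seventh over 1194 kb in all. A histone H2A coding sequence is short, so this overlap does not place it there. The other genes of the window carry LOC numbers.

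Windows of rank 8 to 12 held 16 each, all on chromosome 1 through the tie rule. In all, 10 dense windows held 16, and those ranked after 12 lay on chromosomes 1, 3 and 8. The eighth holds ddrgk1, which encodes a protein of the ufmylation pathway, and its highest focal peak (fold 7.19) lay at 14132682 to 14133603, outside the gene. The tenth, at 16800001 to 16900000, holds egr4, which encodes a zinc finger transcription factor, fbxo41, which encodes an F-box protein, and cct7, which encodes a chaperonin subunit. Of its 16 focal peaks, 7 lay within the span of fbxo41. At egr4, 3 focal peaks lay within 1 kb of an end, with folds of 4.79, 4.34 and 5.99. The eleventh has no coding gene. The twelfth, at 33300001 to 33400000, has 1 LOC gene and was covered in 75.7%, the largest share among all dense windows.

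The ninth window, on chromosome 1 at 16100001 to 16200000, holds a tandem array and had the most focal peaks at gene ends of any dense window, 10 of 16. It overlaps 11 coding genes, among them cpxm1, which encodes a carboxypeptidase-like protein, and 8 copies of nat8, which encodes an N-acetyltransferase. Focal summits lay within 1 kb of an end of 7 of the 8 copies. At nat8.4 there were 3, with folds of 4.34, 5.54 and 4.49, and at nat8.5 there was 1, with a fold of 7.64 at 16156719 to 16157721. At nat8.7 the nearest focal summit was 1066 bp from an end. Neighbouring copies share some of these peaks, so the counts per copy are not independent. The copies are 970 to 6623 bp long and lie in tandem, so many positions in the array are near an end. Bases within 1 kb of a gene end took up at most 36.1% of any dense window. The share in this window is not given here, and the counts were not tested against it. Reads from near-identical copies may be misplaced among them, and no source used here says how such reads were treated.

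**Figure D2:**
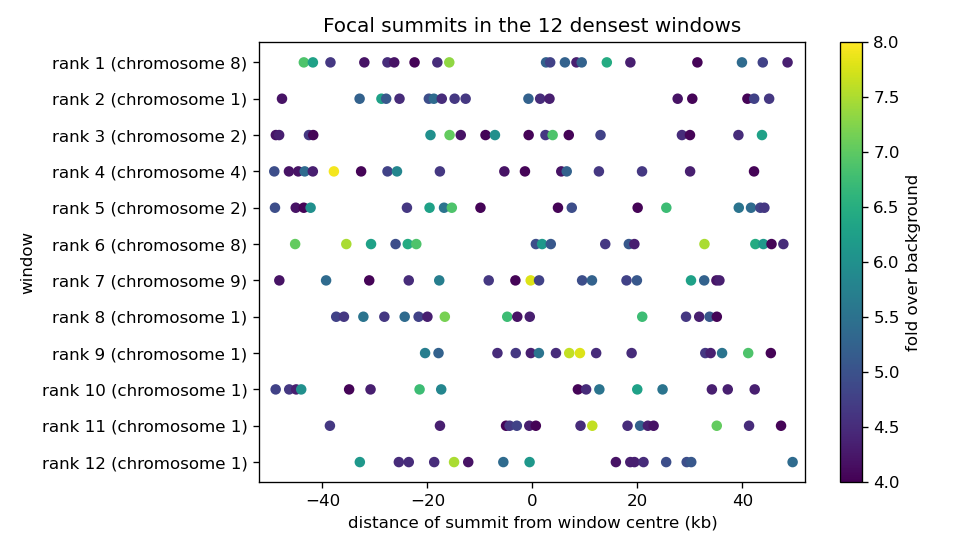
Focal summits of the 12 densest windows, each a point at its distance from the window centre in kb (horizontal axis), 1 window per row with rank and chromosome, coloured by fold from 4 to 8. The top row holds 20 summits and the bottom rows 16 each, and each window has summits on both sides of its centre.

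Focal peaks were spread through the dense windows, not packed at 1 point. When each window was cut into 10 equal parts, a median of 7 parts held a focal summit (range 5 to 10). The median over windows of the median gap between successive summits was 5244 bp (quartiles 4148 and 6327), and the median of the largest gap was 20994 bp. The most focal summits in any 10 kb ranged from 2 to 6 per window. The median fold of focal peaks was 4.79 in dense windows and 4.64 in the other eligible windows. Their median width was 866 bp (quartiles 601 and 1135) in dense windows and 757 bp (515 and 1050) in the others. The definition of a focal peak limits fold and width in both groups, so part of this closeness follows from it.

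Focal peaks in dense windows lay amid other accessible sites. Peaks of any kind covered a median of 43.1% of a dense window (quartiles 36.5 and 51.4), against 14.2% of the other eligible windows (9.49 and 22.2). Leaving out the focal peaks themselves, the medians were 31.7% and 11.8%. Dense windows held a median of 38 peaks of any kind, 18 peaks below a fold of 4, 4 peaks with a fold of 8 or more and 8 peaks 1500 bp or wider. The other eligible windows held medians of 20, 15, 0 and 1. These counts of peaks of any kind include the focal peaks, whose medians were 13 and 3, so part of that difference follows from the rule. Focal peaks made up 33.5% of all peaks in dense windows and 16.5% in the others, which also follows from the rule.

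The surroundings of single focal peaks differed in the same way. Within 1 kb of another peak lay 75.5% of focal peaks in dense windows (73.8 to 77.1) and 46.9% of those elsewhere (46.5 to 47.4). Other focal peaks count as neighbours here, so part of this difference follows from the rule. A wide peak, or one with a fold of 8 or more, lay within 5 kb of 64.2% of focal peaks in dense windows (62.3 to 66.1) and of 32.01% elsewhere (31.6 to 32.4). These values come from the library that chose the windows, and they describe it without testing it. The next 200 windows by rank, with 10 or 11 focal peaks, were close to the dense ones, with a median coverage of 39.0%, 36 peaks of any kind and 4 of fold 8 or more.

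**Figure D3:**
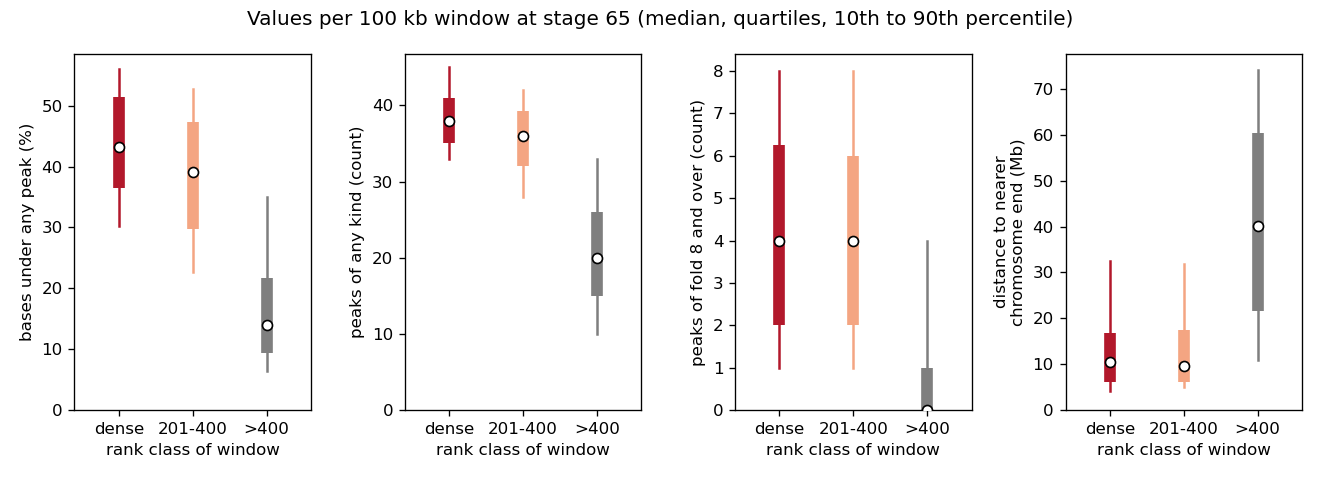
Values per 100 kb window for the 200 dense windows (red), the next 200 by rank (orange) and those ranked below 400 (grey). White points are medians, thick bars quartiles and thin bars the 10th to 90th percentiles, of covered bases in percent, peaks of any kind, peaks of fold 8 and over, and distance to the nearer chromosome end in Mb. Dense windows and the next 200 lie close together on all 4 measures, and windows below rank 400 lie apart from both in their medians.

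The share of windows that were dense was higher in classes of higher coverage. Coverage here includes the focal peaks, which alone covered 7.175% to 18.143% of a dense window. Part of this rise therefore follows from the rule. No window was dense among 3775 with under 10% of bases covered, a share whose exact interval reaches 0.0977%. Of windows covered from 30% to below 40%, 61 of 956 were dense (6.38%, 4.92 to 8.12), and of those covered at 50% or more, 65 of 606 (10.7%, 8.38 to 13.5). Even in this last class 541 windows were not dense, and they held a median of 6 focal peaks against 13 in the dense ones. High coverage thus occurred without a high focal count.

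Dense windows lay near chromosome ends, beyond the margin that was left out. Their median distance from the nearer end was 10.4 Mb (quartiles 6.01 and 16.7), against 39.55 Mb for the other eligible windows (20.9 and 60.2). Within 20 Mb of an end lay 162 of 200 dense windows (81.0%, 74.9 to 86.2) and 23.6% of the others. Of 395 eligible windows 3 to 5 Mb from an end, 31 were dense (7.85%, 5.39 to 10.95), and of 6769 windows over 40 Mb away, 4 were dense (0.0591%, 0.0161 to 0.151). Coverage moved with distance as well: among windows that were not dense, median coverage was 44.5% at 3 to 5 Mb and 10.7% beyond 40 Mb. The part of coverage in the placement of dense windows was not tested.

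All 10 chromosomes carried dense windows. Chromosome 10, the shortest, had the highest share, 15 of 464 eligible windows (3.23%, 1.82 to 5.28), followed by chromosome 9 with 18 of 852 (2.11%, 1.26 to 3.32) and chromosome 8 with 27 of 1412 (1.91%, 1.26 to 2.77). Chromosome 5 had the lowest, 11 of 1580 (0.696%, 0.348 to 1.24). Within 20 Mb of an end, chromosome 10 had 15 dense windows of 340 (4.41%, 2.49 to 7.17), and the shares of the 10 chromosomes ran from 3.24% to 6.76% with overlapping intervals. The tie rule took windows with 11 focal peaks only on chromosomes 1 to 4, so these shares are not ranked. Without the tied windows they ran from 3.24% to 4.71%.

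Windows around the dense ones also held more focal peaks than the mean of all eligible windows. Windows directly beside a dense window held a mean of 7.23 focal peaks, those 10 windows (1 Mb) away 6.44 and those 20 windows (2 Mb) away 5.99, against 3.59 over all eligible windows. Mean coverage was 40.8% beside a dense window and 33.1% at 20 windows, against 18.6% over all. Most dense windows lay near chromosome ends, where focal counts were higher in any case. Windows that were not dense held a median of 6 focal peaks at 3 to 5 Mb from an end. The median was also 6 at 5 to 10 Mb, and it was 5 at 10 to 20 Mb. Flanking windows may also be dense themselves. The part of position in the flanking counts was not tested. Of the dense windows, 46 of 200 had a dense neighbour (23.0%). Neighbours count each other, so no interval is given. The share for other windows is not given here, and the part of position was not tested. The 46 formed 15 pairs, 4 runs of 3 and 1 run of 4, and the other 154 stood alone.

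**Figure D4:**
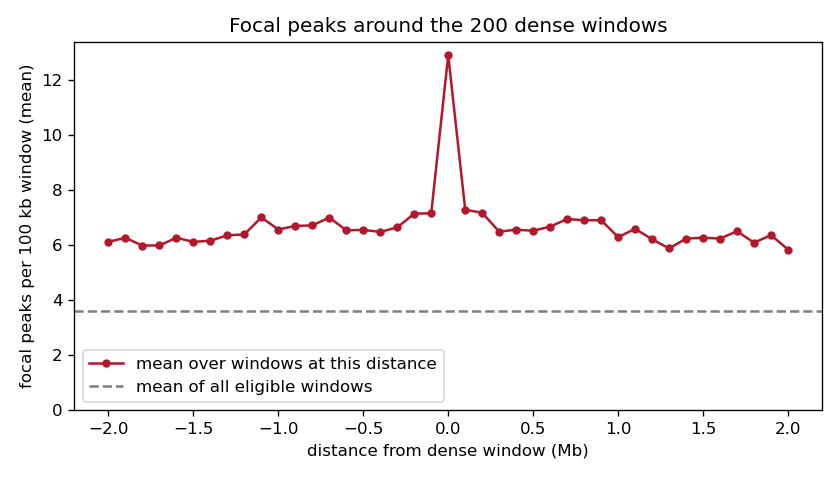
Mean number of focal peaks per 100 kb window (vertical axis) against distance from the dense windows in Mb (horizontal axis). The dashed line is the mean of all eligible windows, 3.59. The central point, 12.9, is set by the choice of windows, and the flanks stay between 5.85 and 7.30 out to 2 Mb on either side.

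The longest run lay on chromosome 1 at 32400001 to 32800000, with 13, 13, 12 and 12 focal peaks in its 4 windows. Of the runs of 3 windows, the first by total lay on chromosome 8, starting at 10200001 (16, 13 and 20 focal peaks, 10 coding genes), and the next on chromosome 1 at 32900001 to 33200000 (18, 16 and 12). Both chromosome 1 runs belong to a stretch between stim2, which encodes a calcium sensor of the endoplasmic reticulum, and pcdh7, which encodes a protocadherin. This stretch, at 32400001 to 33700000, was picked with its values known. It was cut to begin and end with a dense window, which raises its share of dense windows. Of its 13 windows, 9 were dense and held 11 to 18 focal peaks, and the other 4 held 3 to 10. The table lists 1 coding gene in it, LOC101730384, and median coverage was 52.7%.

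Windows without a coding gene numbered 24 of 200 (12%, 7.84 to 17.3), against 12.5% of the next 200 by rank (8.26 to 17.9) and 17.02% of all other eligible windows (16.4 to 17.7). Of the 24, 9 lay on chromosome 1 and 7 on chromosome 8, and 6 overlapped a lncRNA gene. They held 11 to 18 focal peaks and had a median coverage of 47.6%, against 11.7% for other windows without a coding gene. One of them, on chromosome 3 at 3600001 to 3700000 with 12 focal peaks, began 117 kb past wnt7b, a Wnt ligand gene. It ended 95.5 kb before mcat, the nearer gene. Another, on chromosome 10 at 36300001 to 36400000 with 13, began 97.5 kb past snai1, which encodes a repressor in mesenchymal cells. It ended 49.1 kb before LOC105945200, the nearer gene. Both windows were picked from the 24, and no link to a neighbouring gene was tested.

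Gene-rich windows were more frequent among the dense ones than among all others. Windows with 5 or more coding genes made up 38 of 200 (19.0%, 13.8 to 25.1), against 15% of the next 200 by rank (10.4 to 20.7) and 8.38% of all others (7.92 to 8.86). The mean was 2.71 coding genes per dense window and 1.95 per other window. Among windows of like coverage the difference was uneven. At 20% to below 30% coverage the means were 3 in 16 dense windows and 2.20 in the others, at 30% to below 40% they were 2.93 and 2.37, and at 50% or more they were 2.49 and 2.66. Genes named only by a LOC number made up 36.5% of the coding genes in dense windows (32.4 to 40.8) and 26.9% of those in the other windows (26.3 to 27.5). A lncRNA gene was present in 21.5% of dense windows (16.0 to 27.8) in 21% of the next 200 by rank (15.6 to 27.3) and in 13.8% of all others (13.3 to 14.4). By lncRNA genes, by LOC numbers and by gene number, the intervals of the dense windows and the next 200 overlapped.

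The dense window with the most coding genes, 15, lay on chromosome 6 at 4200001 to 4300000 and held 13 focal peaks. Its only gene with a symbol is h2ac16, a histone H2A gene. Another dense window on chromosome 6, at 5100001 to 5200000, also with 13, holds h2ac7 among 12 coding genes. Also on chromosome 6, a window at 3100001 to 3200000 with 15, holds znf33a, znf84 and znf519, whose symbols denote zinc finger proteins. At each of the last 3 genes 1 focal summit lay within 1 kb of an end, and znf84 and znf519 share theirs, at 3180817 to 3181646 (fold 5.24). Single-gene windows were also common, 53 of 200. The gene with the most dense windows was lsamp, a neural cell adhesion gene of 1313 kb, with 3 of its 14 eligible windows.

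Focal peaks of dense windows were no more often at gene ends than those elsewhere, although gene ends were more common. The gene table holds no strand, so a gene end may be a start or a finish. Of focal summits, 259 of 2584 lay within 1 kb of an end in dense windows (10.02%, 8.89 to 11.2), and 4706 of 47332 in the others (9.94%, 9.67 to 10.2). The area within 1 kb of an end took up a mean of 7.74% of a dense window and 5.41% of another window. The summit share was thus 1.30 times the area share in dense windows and 1.84 times elsewhere. In the next 200 windows by rank it was 1.22 times, with 8.75% of focal summits at a gene end (7.57 to 10.1). The low ratio was thus not particular to dense windows. The area means count each window alike, whereas the summit shares count windows by their focal peaks. These ratios, and those below, can therefore shift with how focal peaks and genes are spread over windows. In 92 dense windows no focal summit lay at a gene end.

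This contrast differed with the number of genes. In windows with 1 coding gene, 1.45% of focal summits lay at a gene end in dense windows (0.697 to 2.65) and 3.91% in the others (3.60 to 4.24), with similar areas of 1.66% and 1.78%. In windows with 2 to 4, the shares were 10.7% (8.90 to 12.7) and 13.5% (13.03 to 13.95), and the ratios to area were 1.33 and 1.70. In windows with 5 or more, the shares were 27.3% (23.3 to 31.4) and 24.98% (23.8 to 26.2), with areas of 20.5% and 18.6%. Among windows covered at 30% or more, the ratio of summit share to area share was 1.28 in dense windows and 1.32 in the others. Below 30% coverage it was 1.42 in 19 dense windows and 1.97 in the others. Inside gene spans lay 55.3% of focal summits of dense windows (53.4 to 57.2) and 50.05% of those elsewhere (49.6 to 50.5), where gene spans took up means of 54.5% and 49.9% of a window.

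**Figure D5:**
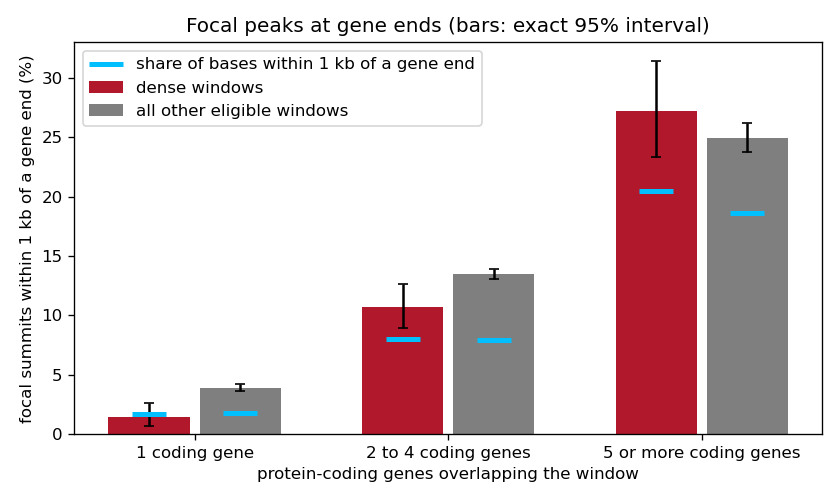
Share of focal summits within 1 kb of a protein-coding gene end in percent (vertical axis), in dense windows (red, left in each pair) and all other eligible windows (grey), by number of coding genes in the window. Black bars are exact 95% intervals and blue marks the share of bases within 1 kb of a gene end. With 1 coding gene the red bar (1.45%) lies near its blue mark and the grey bar (3.91%) above its own.

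Listed developmental regulators were seldom found in dense windows, as were coding genes in general. Of 20160 coding genes that overlap an eligible window, 523 overlapped a dense one, so the background was 2.59%. For coding genes not named by a LOC number it was 2.26% (332 of 14672). Of 338 transcription factor and cofactor genes on 9 fixed lists, 4 did (1.18%, 0.323 to 3.002), a share whose interval includes both backgrounds. They were tshz2, ncoa1, foxm1 and mef2d. The gene smad4.1, in the dense window of rank 57, was not counted under the listed name smad4. No hox gene of 35, sox gene of 14, t-box gene of 11, zinc finger regulator of 50 or bHLH or bZIP regulator of 50 overlapped a dense window. The window at the midpoint of a listed factor held a median of 3 focal peaks, and that of any coding gene 4. With so few members in dense windows, the lists cannot be ranked against each other.

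Signalling lists had 5 members in dense windows. Of 44 FGF, hedgehog and Notch genes there were 2, ihh and notch3, of 49 Wnt genes also 2, wnt5b and axin1, and of 35 BMP and TGF-beta genes 1, tgfb2. Matrix and adhesion genes had 2 of 54, adamts9 and timp3. Cartilage and bone genes had 1 of 36, pth1r, and proteasome and other housekeeping genes 1 of 37, b2m. Skeletal muscle (25), neural (27), epidermal (23), blood and endothelial (22), cytoskeleton (40), ribosomal and translation (31) and chromatin regulator (40) genes had 0. The gene eef2.2, in the dense window of rank 176, was not counted under the listed name eef2. Over all 22 lists, 13 of 801 genes overlapped a dense window (1.62%, 0.867 to 2.76).

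That interval includes the 2.59% of all coding genes and the 2.26% of coding genes not named by a LOC number. The 13 genes are therefore described singly and stand for no pathway. The gene ihh encodes a hedgehog ligand that in mammals and birds paces the growth of cartilage. It lay entirely, on chromosome 9, in the window 82900001 to 83000000, with 15 focal peaks (rank 26) and 44.1% coverage. Inside its span, which took up 42.7% of the window, were 8 of the 15. The highest had a fold of 7.94 at 82956795 to 82958111, followed by 7.19 at 82950952 to 82952137. The peak nearest an end of ihh had its summit 534 bp inside it, with a fold of 5.54 at 82974318 to 82975482. A further focal peak with a fold of 6.74, at 82927030 to 82927777, lay 4880 bp outside the other end. This window also overlaps nhej1, a DNA repair gene, with 1 focal peak inside it.

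The receptor gene pth1r reached into the window 11300001 to 11400000 of chromosome 6, which held 14 focal peaks (rank 40). The gene is 227986 bp long and took up 44.0% of the window, and its midpoint lay outside. Coverage was 25.7%, and 1 peak had a fold of 8 or more, both lower than at ihh. The receptor binds parathyroid hormone-related protein and in mammals holds back chondrocyte maturation. Of the 14 focal peaks, 4 lay inside the gene and the other 10 between it and the next gene, tmie. The highest inside had a fold of 6.59 at 11359884 to 11360532, and the next 6.14 at 11368909 to 11369506. Outside, the highest had a fold of 6.44 at 11336565 to 11337526, 18950 bp from the gene. No focal summit lay within 1 kb of the end inside the window, the nearest being 1705 bp away, and the other end lay outside the window.

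A pair of dense windows lay wholly inside a long list gene, so that all their focal peaks had to lie in it. The window at 152700001 to 152800000 on chromosome 5, with 14, lies in ncoa1, which encodes a coactivator of nuclear receptors and spans 237102 bp. The highest had a fold of 7.49 at 152734958 to 152736111, and none of the 14 was nearer than 30999 bp to an end. The window at 133000001 to 133100000 on chromosome 8, with 12, lies in mef2d, which encodes a MADS-box factor of muscle and neurons, and its highest fold was 5.39. At tgfb2, a TGF-beta ligand gene that took up 63.1% of its window, 8 of 12 lay inside (chromosome 5, 11400001 to 11500000). Its highest had a fold of 7.34 at 11432234 to 11433242.

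How many focal peaks lay inside a gene depends on how much of the window the gene took up. At wnt5b, which encodes a ligand of non-canonical Wnt signalling, 7 of 13 focal peaks lay inside the gene, which took up 55.6% of the window (chromosome 3, 9400001 to 9500000). The nearest to an end was 257 bp away at 9454809 to 9455762 (fold 4.49). At axin1, which encodes a scaffold that helps degrade beta-catenin, 2 of 13 lay inside the 4.8% of the window that the gene took up (chromosome 9, 15100001 to 15200000), with folds of 7.94 at 15101044 to 15101994 and 4.34 at 15103831 to 15104867. The window of notch3, a Notch receptor gene, had 13 focal peaks and no peak of fold 8 or more (chromosome 3, 132600001 to 132700000). Of these, 4 lay inside notch3, which took up 33.8% of the window, with folds of 7.34, 4.04, 4.04 and 4.34.

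At tshz2, which encodes a teashirt zinc finger factor, 7 of 15 focal peaks lay inside the gene, which took up 36.2% of the window (chromosome 10, 34600001 to 34700000). The highest, with a fold of 7.64 at both 34629686 to 34630297 and 34657156 to 34658155, lay outside it. At adamts9, which encodes a secreted protease of proteoglycans, 1 of 14 lay inside the 3.2% of the window that the gene took up (chromosome 4, 144600001 to 144700000). Much of that window belongs to prickle2, a planar polarity gene. At timp3, which encodes an inhibitor of metalloproteinases, 5 of 11 lay inside the 35.4% of the window that the gene took up (chromosome 3, 7400001 to 7500000), with coverage of 54.5% and 7 peaks of fold 8 or more. The genes timp3 and syn3 overlap in the table, so focal peaks in timp3 cannot be assigned to either.

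The remaining list members shared their windows with many genes. At foxm1, a cell cycle transcription factor gene, 2 of 12 focal peaks lay inside the gene and 1 within 1 kb of an end, among 7 coding genes (chromosome 3, 10300001 to 10400000). At b2m, which encodes the light chain of MHC class I, 1 of 13 lay inside and none within 1 kb of an end, among 6 coding genes (chromosome 9, 5400001 to 5500000). The notochord marker not, a homeobox gene, lay in a window at rank 171 with 11 focal peaks (chromosome 1, 16900001 to 17000000). It had 2 focal summits within 1 kb of its ends, with folds of 4.94 and 5.24. None of the other tissue markers lay in a dense window.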

How the data were processed

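Each of the 3 deposited narrowPeak lists comes from 1 urostyle library. The submitters' processing notes list Bowtie2, Picard, MACS2 and Genrich but neither their versions nor their roles. Genome build, read filters and peak settings were not found in any source used here and are treated as unknown. In the deposited stage 65 list, by its values, column 7 is a fold (the ratio of a summit's pileup to a single background level), columns 8 and 9 are −log10 p and −log10 q, and the score is 10 times −log10 q. Peaks of that list do not overlap. Deposited positions of the other lists (other units) served only to compare coordinate systems.

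Windows, shares and exact Clopper-Pearson or Poisson intervals were computed with Python 3.11.15, pandas 2.3.3 and scipy 1.17.1, and the steps were tested on simulated data. Chromosomes end at the largest peak end. Genes come from a table of UCB_Xtro_10.0 without strand. Its fit was checked by position: 3.59% of 53042 focal summits lay within 250 bp of a coding gene end, against 1.61% to 2.04% after shifts of 1 to 20 kb. No gene coordinate is printed and no sequence was used here. Of 873 list genes, 845 matched a coding symbol or a synonym. Gene copies with a numbered symbol can be missed by this matching.

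Named were the 12 densest windows, the 3 longest runs, the windows at the limit and with the most genes, their coding genes with symbols, and list members in dense windows. Members and lists were chosen with earlier results of these data known. Alternatives concerned fold range, width, grid, ranking, margins, set size, gene overlap and ties.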

Additional observations from a re-analysis of the deposited data

How the results depend on the processing

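Which windows were chosen depended on the settings, and so did part of what they held. Of the 200 dense windows, 114 were chosen again with peaks of any width, 75 with folds from 3, 80 with folds from 5, 113 (by at least 50 kb of overlap) on a grid shifted by 50 kb and, by construction, 100 among the 100 densest. With other settings 147 to 200 were shared, of which 200 with the 400 densest and 168 above the tie also follow by construction. The share of coding genes in dense windows (2.59%) became 3.01% with folds from 3, 2.24% with folds from 5, 1.31% with 100 windows, 4.88% with 400, 2.11% by gene midpoint and 2.19% for the 168 windows above the tie, a setting added after seeing the data. The share of dense windows without a coding gene (12%) became 7% with folds from 3 and 27.5% by gene midpoint. The share of focal summits at gene ends (10.02%) became 7.63% with folds from 5, and 5.53% and 18.7% within 500 and 2500 bp. Changing the number of windows shifts the share of genes by construction, and changing the distance shifts the share at gene ends likewise. The share of transcription factor genes stayed between 0.592% and 2.96%, inside its wide counting interval (0.323 to 3.002). In all, 39 of 55 values stayed within the interval or within 1.5 times of the count. The 55 include values that were kept or shifted by construction. No paired analysis was possible because there is 1 library per stage. Depth limits the rule: summits of 25 and 26 fragments fall on different sides of a fold of 4.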

Other observations

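Some windows were widely covered and yet held no focal peak. Of the eligible windows, 1048 held no focal peak. Most were sparse, with a median of 11 peaks of any kind and 7.46% coverage, and 27.5% had no coding gene. Yet 37 of them were covered at 50% or more, and 7 at over 90%. Of 800 peaks wider than 10 kb in eligible windows, 11 had their summit in a dense window (1.38%), near the 1.44% of windows that were dense.

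Clusters of non-coding genes occurred in some dense windows, singled out after their values were seen. A window on chromosome 3 at 135000001 to 135100000, with 13 focal peaks, overlaps 21 tRNA genes. On chromosome 1, a window at 9600001 to 9700000 with 11 focal peaks overlaps 6 V segment genes, which are pieces of antigen receptor genes. A window on chromosome 3 at 138700001 to 138800000, with 13, overlaps 6 lncRNA genes. A tRNA gene was present in 5 of 200 dense windows (2.50%, 0.817 to 5.74) and in 1.28% of the other eligible windows (1.10 to 1.48). A stretch of chromosome 9 from 81800001 to 86900000, which includes the ihh window, held 9 dense windows among 51. One on chromosome 8 from 8700001 to 10500000 held 6 among 18, and a longer one there, from 17300001 to 38300000, held 15 among 210. These stretches were cut to begin and end with a dense window, which raises their shares. Of all eligible windows 1.44% were dense. By distance from a chromosome end it was 7.85% at 3 to 5 Mb, 6.3% at 5 to 10 Mb and 3.4% at 10 to 20 Mb.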
